A study of Homo sapiens with 2 samples.

Results

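The 57 genes described here encode developmental homeodomain transcription factors outside the HOX clusters. They comprise 6 DLX, 8 LHX, 8 NKX and 6 IRX genes, plus 29 others such as EN1, MEIS1, CDX1 and ISL1, and all 57 were found among 20162 protein-coding genes of GENCODE 44 on GRCh37 (hg19). They were chosen by name, and their values were read from ATAC-seq peaks within 3 kb of each transcription start site (TSS). ATAC-seq uses the Tn5 transposase to cut open chromatin, so that reads pile up where DNA is accessible. The cells were G401, an established renal rhabdoid tumor line. For 3 days they were kept either in DMSO alone, as the solvent control, or in 3 μM MAK683, an inhibitor of Polycomb repressive complex 2 (PRC2) that acts through its EED subunit. Each group had 1 library, so no difference has a replicate check, no test could be made and every ratio compares these libraries only.

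Homeodomain factors bind DNA through a conserved fold and set the identity of cells along the body axis, in the brain, the heart, the limbs and the gut. In most differentiated cells the genes of other lineages are silent, and many lie in CpG-rich chromatin where PRC2 deposits H3K27me3, the trimethyl mark on histone H3 lysine 27. PRC2 inhibitors remove this mark, and the comparison asks whether the promoters of these genes were more or less accessible afterwards. The promoter height of a gene was the tallest peak within 3 kb of its TSS, as tags per 1000000 filtered tags (RPM). For a library without a peak there, a floor of 0.361 RPM, which is 6 tags in DMSO and the larger of the lowest heights listed in each library, was used instead.

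Regions with large gains, and that of DLX1, which was lower in MAK683, are shown here for orientation. Each is given as reference bases around the MAK683 summit on the strand of the gene, 5′ to 3′, with every CG dinucleotide in capitals. IRX4, NKX2-2 and LHX5 were among the 4 members with the largest ratios that had a peak in both libraries, DLX1 had the tallest DMSO promoter peak, and LHX8 was added after its values were seen because it had the tallest peak of those with none in DMSO. The IRX4 stretch lies at chr5:1883780-1884079 (minus strand) in an intron of a longer transcript, the NKX2-2 stretch at chr20:21493676-21493975 (minus strand) in an intron that overlaps an exon of ENSG00000289590, and the LHX5 stretch at chr12:113904027-113904326 (minus strand) in an intron, 5499 bp downstream of the TSS. The DLX1 stretch at chr2:172949610-172949875 (plus strand) was shortened to 266 bases to leave out UTR, and the LHX8 stretch lies at chr1:75599531-75599830 (plus strand), with both of these summits in introns of longer transcripts and upstream of the TSS used.
IRX4: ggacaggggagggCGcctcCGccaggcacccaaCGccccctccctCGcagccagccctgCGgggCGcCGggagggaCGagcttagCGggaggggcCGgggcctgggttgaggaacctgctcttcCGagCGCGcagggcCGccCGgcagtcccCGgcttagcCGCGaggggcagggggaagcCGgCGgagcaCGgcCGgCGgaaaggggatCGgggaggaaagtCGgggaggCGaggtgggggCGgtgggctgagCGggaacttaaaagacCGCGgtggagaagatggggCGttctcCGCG
NKX2-2: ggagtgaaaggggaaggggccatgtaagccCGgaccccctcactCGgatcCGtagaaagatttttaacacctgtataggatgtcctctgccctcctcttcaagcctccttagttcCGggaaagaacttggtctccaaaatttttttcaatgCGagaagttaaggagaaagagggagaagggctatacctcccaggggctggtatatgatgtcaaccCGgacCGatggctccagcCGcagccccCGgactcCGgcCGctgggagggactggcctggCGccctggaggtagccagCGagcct
LHX5: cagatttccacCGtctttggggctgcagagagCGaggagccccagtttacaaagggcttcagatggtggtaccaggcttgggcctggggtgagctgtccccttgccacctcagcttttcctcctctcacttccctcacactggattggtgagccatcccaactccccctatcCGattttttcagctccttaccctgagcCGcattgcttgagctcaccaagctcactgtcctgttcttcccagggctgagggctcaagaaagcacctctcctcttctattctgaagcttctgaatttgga
LHX8: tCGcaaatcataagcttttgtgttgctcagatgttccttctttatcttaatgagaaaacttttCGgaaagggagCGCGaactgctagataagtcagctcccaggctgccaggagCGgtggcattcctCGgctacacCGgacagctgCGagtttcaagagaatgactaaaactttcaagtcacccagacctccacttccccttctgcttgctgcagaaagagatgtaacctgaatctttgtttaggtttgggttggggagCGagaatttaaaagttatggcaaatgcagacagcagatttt
DLX1: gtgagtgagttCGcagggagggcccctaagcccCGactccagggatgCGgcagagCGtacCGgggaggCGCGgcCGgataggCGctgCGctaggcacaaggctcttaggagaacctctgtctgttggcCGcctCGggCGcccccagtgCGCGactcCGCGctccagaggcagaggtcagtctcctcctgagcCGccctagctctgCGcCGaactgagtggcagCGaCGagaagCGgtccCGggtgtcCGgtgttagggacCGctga

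These stretches differed widely in base composition. IRX4 held 33 CG dinucleotides at 74.3% GC and DLX1 held 26 at 68.4% GC, whereas NKX2-2 held 13 at 57% GC, LHX8 held 9 at 45.7% GC and LHX5 held 4 at 54.7% GC. The summits of the gains shown therefore did not all lie in CpG-dense stretches. This holds for the summits only. The 300 bases around the TSS held 10 CpG per 100 bases at LHX5 and 9.33 at NKX2-2, but 2.67 at LHX8, beside a median of 8.33 for all protein-coding genes.

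At the median, the homeobox promoters were about as high in MAK683 as in DMSO, while most promoters of the genome were lower in MAK683. The median log2 height ratio (MAK683 over DMSO) of the 52 members with a peak in either library was -0.04, a fold of 0.971, with quartiles of -0.40 and 0.64. Over the 16247 protein-coding genes with a peak in either library the median was -0.42, with quartiles of -0.67 and -0.09. The members' median thus lay 0.38 above that of all genes on the log2 scale. Of the 52 members, 26 were higher and 26 lower in MAK683, against 21.5% of all genes higher. The sign of the members' median and this split turn with the scale, since 26 were higher, 21 lower and 5 equal with tags left unscaled, and 41 were higher and 11 lower after subtracting the median of all genes. At least 2-fold higher were 7 of the 52, a share of 13.5% beside 3.37% of all genes, and at least 2-fold lower was 1, beside 5.75% of all genes. Of the 46 members with a peak in both libraries, 3 were at least 2-fold higher, beside 1.11% of all such genes. The count of 7 rests on low peaks, since it was 3 with peaks of a −log10 q of at least 5 and 0 with peaks of at least 10 or with every height under 1 RPM raised to 1 RPM. It includes 4 genes without a DMSO peak, LHX8, EN1, PRRX1 and NKX2-1, for which the ratio was taken against the floor.

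A promoter peak was listed for 47 of the 57 members in DMSO, which is 82.5% beside 72.7% of all protein-coding genes. In MAK683 it was listed for 51, or 89.5% beside 78.7%. Most of these developmental genes therefore already had a peak in the solvent-treated cells. A peak in MAK683 alone was found for 5 of the 52 members, a share close to the 9.77% of all genes with a peak, and a peak in DMSO alone for 1, beside 2.29%. The difference between members and all genes thus lay in the height and extent of peaks more than in whether a peak was listed.

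**Figure D1:**
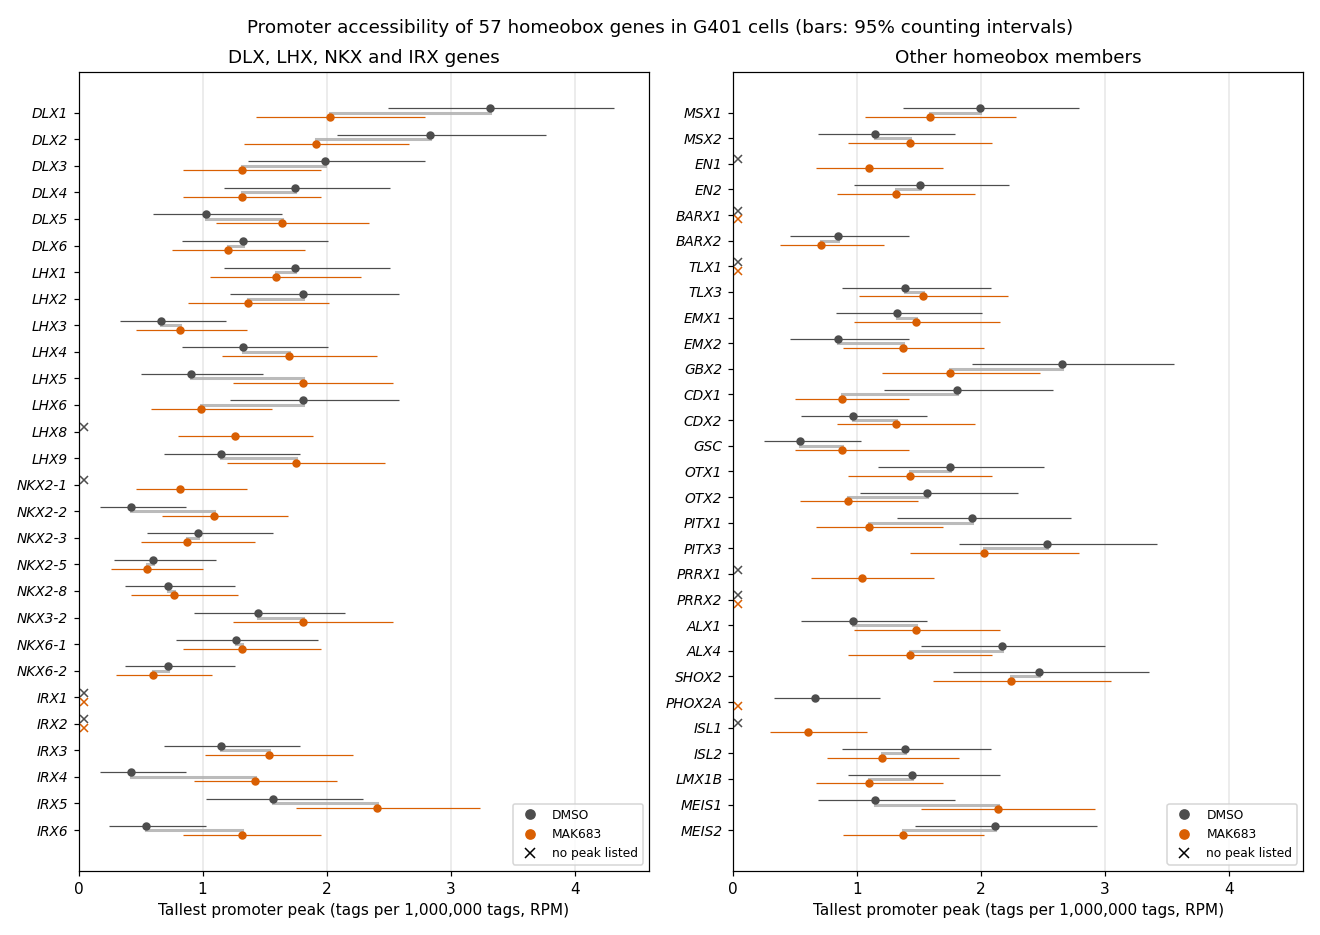
Height of the tallest promoter peak of each of the 57 members (RPM, x axis) in DMSO (grey) and MAK683 (orange), with 95% exact counting intervals as horizontal bars and crosses where no peak was listed. All 4 IRX genes with a peak lie to the right in MAK683, whereas 5 of 6 DLX genes lie to the left.

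The IRX genes had the highest ratios of the subfamilies. Iroquois factors pattern the heart, the limbs and the nervous system, and their genes lie in a pair of clusters, on chromosomes 5 and 16. The 4 members with a promoter peak, IRX3, IRX4, IRX5 and IRX6, were all higher in MAK683, with a median log2 ratio of 0.95. This median describes a pair of genomic loci rather than 4 separate ones. IRX3, IRX5 and IRX6 on chromosome 16 had a median of 0.62, and IRX4 was the only one with a peak on chromosome 5. IRX4, a regulator of ventricular identity in the heart, had 7 tags (0.422 RPM) in DMSO and 26 tags (1.42 RPM) in MAK683. This is a log2 ratio of 1.76, and its 95% counting interval, 0.51 to 3.20, excluded 0. IRX6 had 9 tags (0.542 RPM) and 24 tags (1.31 RPM), a log2 ratio of 1.28 with an interval of 0.12 to 2.57. IRX5, which with IRX3 acts in heart conduction and limb patterning, had the tallest peaks of the subfamily in both libraries, 26 tags (1.57 RPM) in DMSO and 44 tags (2.41 RPM) in MAK683. Its log2 ratio of 0.62, like the 0.42 of IRX3 (19 and 28 tags), had an interval that included 0.

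IRX1 and IRX2, the neighbors of IRX4 on chromosome 5, had no promoter peak and not a single peak within 50 kb in either library. The nearest peak to the IRX2 TSS lay 712614 bp away in DMSO and 712661 bp away in MAK683. Both genes sat in a peak-free stretch of 3.27 Mb in DMSO, chr5:2039178-5304858, and of 2.84 Mb in MAK683, chr5:2039131-4879616. Among the gaps of each library, 46 of 114036 gaps between neighboring DMSO peaks, and 60 of 161160 in MAK683, were at least as long, and the median gap was 2.00 kb in DMSO and 2.77 kb in MAK683. A list of peaks cannot tell closed chromatin from DNA that the cells lack, and which of these holds for IRX1 and IRX2 was not tested.

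**Figure D2:**
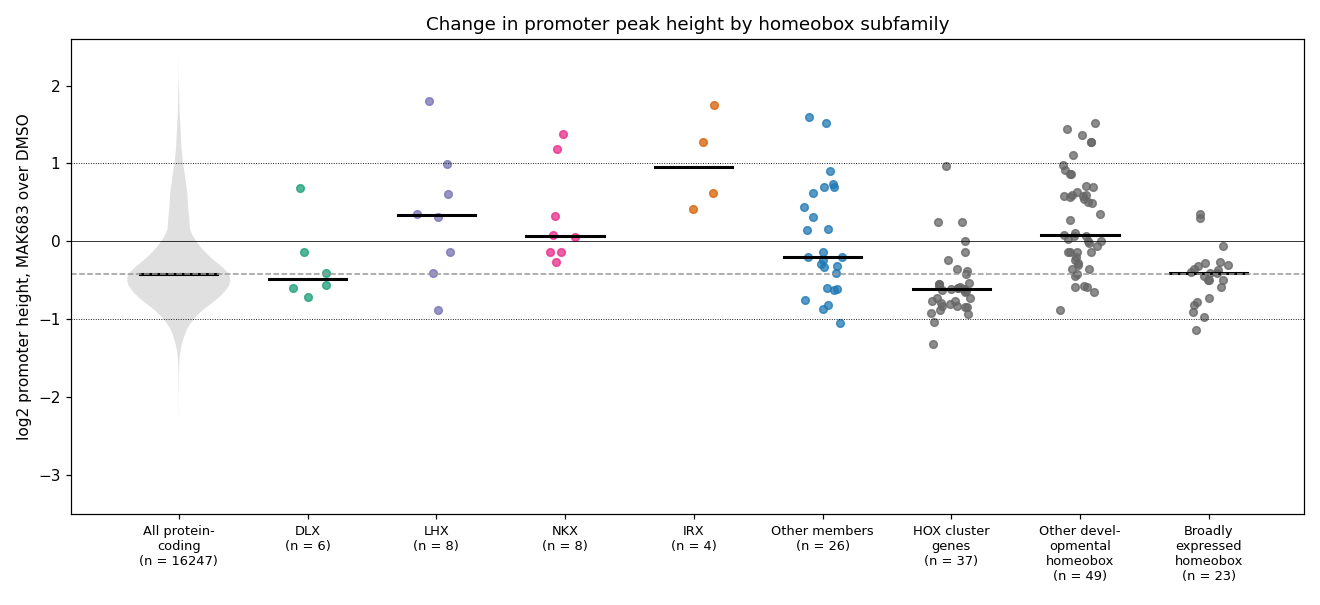
Log2 ratio of promoter height (MAK683 over DMSO, y axis) for each gene with a peak in either library, by set, with medians as black bars, the median of all protein-coding genes (-0.42) dashed and 2-fold limits dotted. IRX has the highest median (0.95) and DLX (-0.49) lies at the bottom of the member subfamilies.

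The LHX genes, which encode LIM-homeodomain factors of neurons, gonads and limbs, gave a median log2 ratio of 0.33, and 5 of 8 were higher. LHX8, a factor of basal forebrain neurons and tooth development, had no promoter peak in DMSO and a 23-tag peak (1.26 RPM) in MAK683, a log2 ratio of 1.80 against the floor. LHX5, a regulator of forebrain development, had 15 tags (0.904 RPM) in DMSO and 33 tags (1.81 RPM) in MAK683, which made it the tallest LHX promoter there. Its log2 ratio of 0.999 (interval 0.08 to 1.99) stood just under the 2-fold limit. The peaks differed in place, since the DMSO summit lay 2082 bp upstream of the TSS and the MAK683 summit 5499 bp downstream, in a peak 9686 bp long, beside 447 bp for the DMSO peak. At the tallest region where peaks of both libraries overlapped, the LHX5 ratio was 0.45, and with peaks limited to 1 kb of the TSS, where DMSO had none, it was 2.32 against the floor. LHX6, which acts in cortical interneurons, went the other way with 30 and 18 tags and a log2 ratio of -0.88. Its interval, -1.80 to 0.01, included 0. LHX2, a regulator of eye and forebrain, shared with LHX6 the tallest LHX promoter in DMSO with 30 tags (1.81 RPM), and had 25 (1.37 RPM) in MAK683, a log2 ratio of -0.40. LHX1, which acts in kidney and forebrain development, had 29 tags in both libraries.

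NKX promoters had low peaks in DMSO, and their median log2 ratio was 0.07, with 5 of 8 higher. NKX2-2, which acts in pancreatic beta cells and ventral spinal cord, had 7 tags (0.422 RPM) in DMSO and 20 tags (1.09 RPM) in MAK683, a log2 ratio of 1.38 with an interval of 0.08 to 2.86. NKX2-1, a regulator of lung, thyroid and ventral forebrain, had no promoter peak in DMSO and 15 tags (0.821 RPM) in MAK683, a log2 ratio of 1.18 against the floor. The heart factor NKX2-5 had 10 tags in each library, but in separate peaks. Their summits lay 2596 bp upstream of the TSS in DMSO and 3269 bp upstream in MAK683. NKX3-2, a factor of the axial skeleton, had the tallest NKX promoter in both libraries, 24 tags (1.45 RPM) and 33 tags (1.81 RPM), with a ratio of 0.32 (interval -0.48 to 1.14). The log2 ratios of the remaining 5, NKX2-3, NKX2-5, NKX2-8, NKX6-1 and NKX6-2, ran from -0.26 to 0.08.

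The DLX genes formed the opposite end. Distal-less factors act in forebrain interneurons, branchial arches and limbs, and their genes lie in convergent pairs. All 6 had promoter peaks in both libraries, only DLX5 was higher in MAK683, and the median log2 ratio was -0.49, next to the -0.42 of all genes. DLX1 had the tallest promoter of all members in DMSO, with 55 tags (3.31 RPM, interval 2.50 to 4.31), and 37 tags (2.03 RPM, interval 1.43 to 2.79) in MAK683. Its log2 ratio was -0.71 with an interval of -1.35 to -0.08, which includes the -0.42 of all genes. After subtracting that median, DLX1 had a ratio of -0.29. Its partner DLX2 had 47 and 35 tags, and the pair on chromosome 17 was likewise lower, with 33 and 24 tags for DLX3 and 29 and 24 for DLX4. The pair on chromosome 7 differed, since DLX5 had 17 and 30 tags (log2 ratio 0.68) and DLX6 had 22 tags in both libraries. The DLX subfamily was therefore not uniform, and its medians describe 3 genomic loci rather than 6 separate ones.

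Among the other 29 members, 26 had a peak in either library, the median log2 ratio was -0.20, and 11 were higher. EN1, which marks the midbrain-hindbrain boundary and ventral limb, had no promoter peak in DMSO and 20 tags (1.09 RPM) in MAK683, a log2 ratio of 1.60 against the floor. PRRX1, a factor of limb and craniofacial mesenchyme, likewise had none in DMSO and 19 tags (1.04 RPM) in MAK683, a ratio of 1.52. ISL1, a regulator of motor neurons and cardiac progenitors, went from none to 11 tags (0.602 RPM), a ratio of 0.74, which stayed under 2-fold. Members named after their values were seen include MEIS1, a cofactor of HOX proteins, with 19 tags (1.14 RPM) in DMSO and 39 tags (2.14 RPM) in MAK683 and a log2 ratio of 0.90 (interval 0.07 to 1.77). The MEIS1 summits lay 175 bp upstream of the TSS in DMSO and 1528 bp upstream in MAK683.

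Fewer members stood at least 2-fold lower. CDX1, a regulator of intestinal and posterior identity, was the only member at least 2-fold lower, with 30 tags (1.81 RPM) in DMSO and 16 (0.876 RPM) in MAK683, a log2 ratio of -1.04 (interval -2.02 to -0.12). Its summits lay 3046 and 2991 bp upstream of the TSS, at the edge of the window. With only summits within 3 kb of the TSS its log2 ratio was -0.14, but that rule dropped the DMSO peak of this site and kept the MAK683 peak. With peaks within 1 kb, which left out both, its log2 ratio was -0.58, so the call rests on this site. With tags left unscaled it was -0.91, and no member then stood 2-fold lower. PHOX2A, a factor of noradrenergic neurons, had 11 tags (0.663 RPM) in DMSO and no peak within 3 kb in MAK683, a ratio of -0.87 against the floor. The PHOX2A summit in DMSO lay 3186 bp downstream of the TSS, so only the end of that peak reached into the window. At the tallest region where peaks of both libraries overlapped, the PHOX2A ratio was -0.79, so its absence in MAK683 rests on the window edge. GBX2, which acts in the anterior hindbrain, had the tallest DMSO promoter of these 29, with 44 tags (2.65 RPM), and 32 tags (1.75 RPM) in MAK683, a ratio of -0.60. The GBX2 summits lay 62 bp upstream of the TSS in DMSO and 3907 bp downstream in MAK683. With peaks within 1 kb the GBX2 ratio was -0.90, and at the tallest shared region it was -0.60. SHOX2, a limb and sinoatrial node factor, had 41 tags in both libraries, the tallest of these 29 in MAK683 (2.24 RPM), but in separate peaks. The MAK683 summit lay nearest to the TSS of RSRC1, at 279 bp, so that peak may belong to either gene. With only peaks nearest to the SHOX2 TSS, or only summits within 3 kb, the SHOX2 log2 ratio was -0.45. At the tallest shared region it was -0.69, so the equal tags rest on the MAK683 peak near RSRC1.

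By homeodomain class, the 13 other members of the ANTP class had a median of 0.15 and the 11 of the PRD (paired-like) class, such as OTX2, PITX1 and GSC, a median of -0.31 with 3 of 10 higher. The 3 of the LIM class (ISL1, ISL2 and LMX1B) had a median of -0.20, and the TALE genes MEIS1 and MEIS2 went apart, with 19 and 39 tags for MEIS1 and 35 and 25 for MEIS2. Counting intervals excluded 0 upward for 5 members (IRX4, IRX6, NKX2-2, LHX5 and MEIS1) and downward for 2 (DLX1 and CDX1) of the 46 with a peak in both libraries. For all of these except CDX1 the summits of both libraries lay more than 150 bp apart, so the intervals compare tallest peaks rather than the same site. Of all genes with a peak in both, 0.819% had an interval above 0 and 16.9% an interval below 0. The other members with a peak in both libraries could not be told from equal heights at this depth. BARX1, TLX1 and PRRX2, which act in stomach, spleen and mesenchyme, had no promoter peak in either library, but unlike IRX1 and IRX2 they had peaks 6090 to 13827 bp from the TSS.

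Ratios were highest at promoters with low peaks. Among members with a mean height of both libraries under 1 RPM, the median log2 ratio of 16 was 0.71, beside 0.14 for 4411 other protein-coding genes of that height, and 7 of the 16 (43.8%) were at least 2-fold higher, beside 10.6%. From 1 to 1.5 RPM the median of 18 members was 0.15 and 11 were higher, whereas the 3423 others had a median of -0.45 and 17.2% were higher. From 1.5 to 2 RPM the medians were -0.32 for 13 members and -0.53 for 3893 others. At 2 RPM or more, the 5 members DLX1, DLX2, GBX2, PITX3 and SHOX2 had a median of -0.56, beside -0.50 for 4468 others. Taken relative to shared regions within 1 Mb, the order in this class was the opposite, with 0.03 for the members and -0.20 for the others. Of the ratios, 6 rest on the floor, which all fall in the class under 1 RPM.

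**Figure D3:**
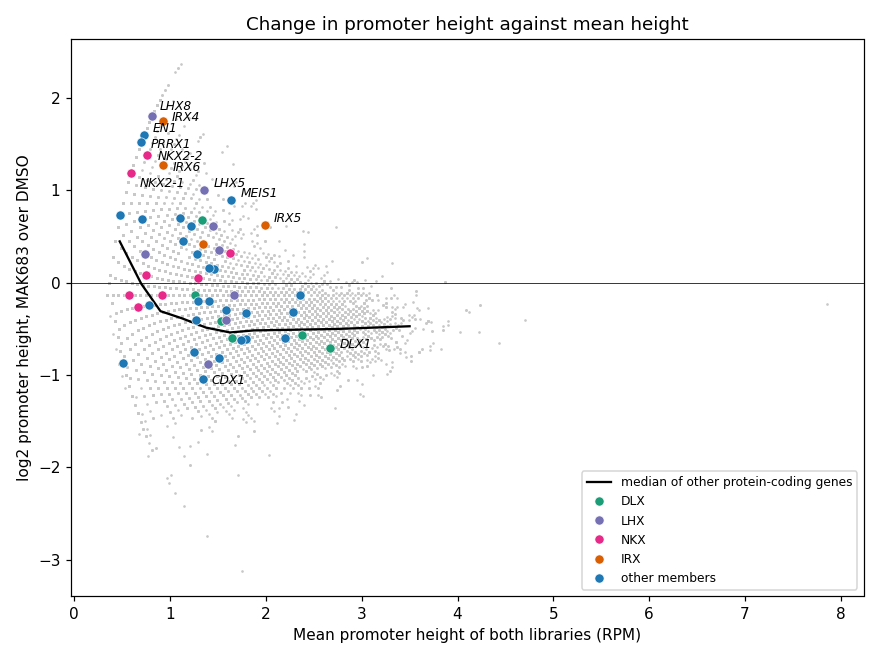
Log2 ratio of promoter height (MAK683 over DMSO, y axis) against the mean height of both libraries (RPM, x axis) for members (colored by subfamily) and other protein-coding genes (grey points, black line: their median by height). Members under 1.5 RPM lie mostly above the line, and DLX1 lies at the tall end.

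Many members also had more DNA under peaks around them in MAK683. Within 10 kb of the TSS, peaks covered on average 5.32 kb per member in DMSO and 7.47 kb in MAK683, a ratio of 1.41 in total length, whereas the average of all protein-coding genes went from 2.80 to 2.50 kb, a ratio of 0.892. The number of peaks in these windows went from 291 to 441, while their mean height went from 0.926 to 0.786 RPM. For all protein-coding genes the mean height in these windows went from 1.05 to 0.825 RPM, so the lower mean was not particular to the members. Counting overlapping windows only once, 55 windows held 300.6 kb in DMSO and 423.5 kb in MAK683. The covered length was longer in MAK683 for 34 of 55 members with any peak there, beside 33.6% of all genes, and at least 2 times as long for 23 of 55, beside 18.5%. These comparisons were not matched for height. In DMSO the tallest promoter peak had a median of 22 tags for members and 32 for all genes.

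On this measure the NKX and IRX genes with peaks all lay on 1 side. All 8 NKX genes had more covered DNA in MAK683, with a total ratio of 2.70. Their median height had hardly moved on the RPM scale, but its log2 ratio was 0.49 after subtracting the median of all genes. NKX2-1 went from 719 to 10202 bp under peaks, NKX2-2 from 3499 to 10689 bp, and NKX6-1, a beta cell and motor neuron factor, from 2520 to 7722 bp with nearly equal heights of 21 and 24 tags. The 4 IRX genes with peaks all had more, with a total ratio of 3.31, and IRX4 went from 316 to 7426 bp. The LHX ratio was 1.53, with 5 of 8 longer. LHX8 went from 0 to 10901 bp and LHX9, a factor of gonad and brain, from 933 to 14176 bp. The total of the other 29 members had a ratio of 1.23, and there EN1 went from 1087 to 14101 bp and EMX2, a factor of cortex and urogenital tract, from 4695 to 15314 bp.

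For the DLX genes the ratio was 1.06, which hid opposite changes between pairs. DLX5 and DLX6, whose windows overlap in part, went from 1053 to 8070 bp and from 1493 to 10733 bp. The 4 genes of the other pairs all had less, such as DLX1 with 18133 and 15493 bp and DLX4 with 10277 and 6065 bp. Outside the DLX genes, the largest decreases in length were at LMX1B, which acts in dorsal limb, kidney podocytes and midbrain neurons, from 13650 to 4531 bp, and at MEIS2, from 13364 to 6540 bp.

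**Figure D4:**
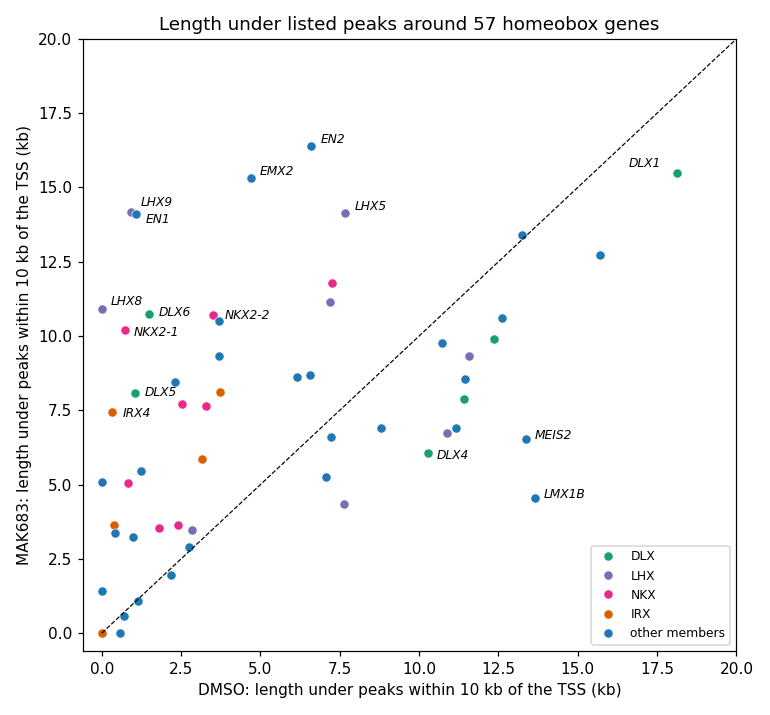
Length under peaks within 10 kb of the TSS (kb) in DMSO (x axis) and MAK683 (y axis) for the 57 members, colored by subfamily, with equality dashed. NKX and IRX genes with peaks lie above the line, and LMX1B and MEIS2 lie well below it.

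**Figure D5:**
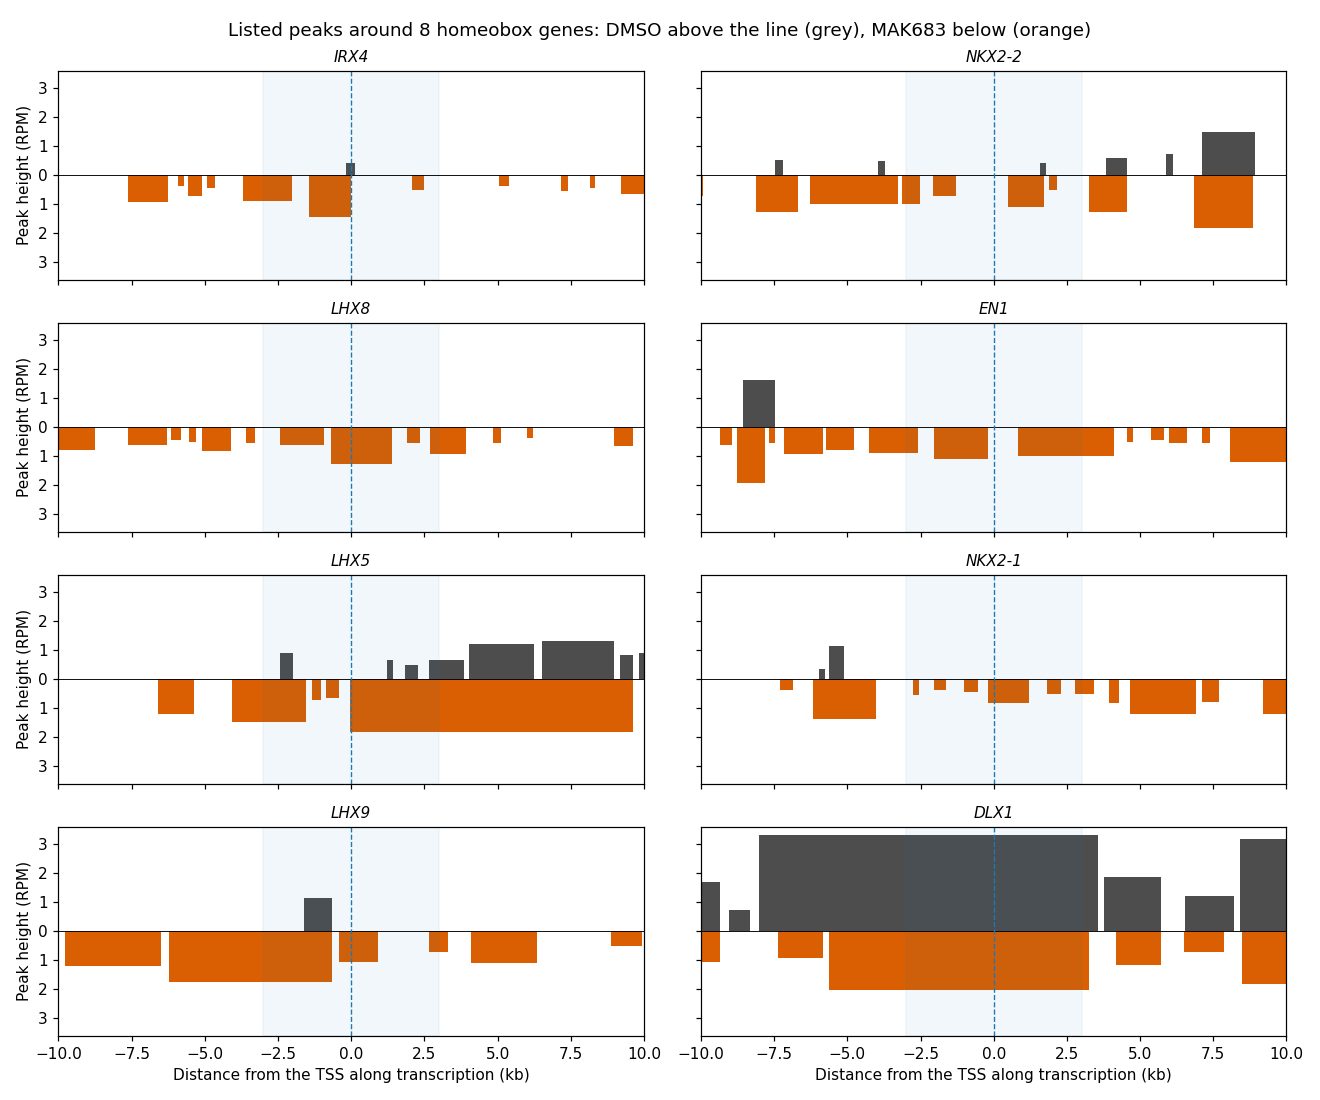
Peaks within 10 kb of the TSS of 8 members, as distance from the TSS along transcription (kb, x axis) against height (RPM, y axis), with DMSO above and MAK683 below the line and the 3 kb window shaded. Each box has the full length of a listed peak and the height of its summit, so signal inside a box is not drawn, and the MAK683 boxes at LHX8, EN1, NKX2-1 and LHX9 cover stretches that are empty in DMSO.

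The tallest promoter peaks were longer as well. The tallest peak of a member had a median length of 1699 bp in DMSO and 1965 bp in MAK683, whereas the median of all protein-coding genes went from 1632 to 1318 bp. Peaks of at least 2 kb were held by 18 of 47 members in DMSO (38.3%, all genes 34.7%) and by 25 of 51 in MAK683 (49.0%, all genes 22.4%). Of the 46 members with peaks in both, 28 had a longer and 18 a shorter tallest peak in MAK683, beside 26.9% of all genes with a longer one, and for 14 it was at least 2 times as long, beside 6.4%. The summits of both libraries lay within 150 bp of each other for 13 of 46, beside 59.7% of all genes, and more than 1 kb apart for 15, beside 9.33%. Where summits lay apart, the height ratio compares different sites. The lengths and shares of members and all genes given here were not matched for height either.

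The DNA at the members' TSSs was CG-rich, as it is at most promoters. In the 300 bases around the TSS, their median GC content was 67.0% and their median CpG density 8.33 per 100 bases, close to 65.7% and 8.33 for all protein-coding genes. CGCG, a marker of CpG-dense DNA that reads the same on both strands, occurred in 52 of 57 member windows (91.2%), beside 68.8% of all windows of that length. TAATTA, a core that many homeodomains bind and also the same on both strands, occurred in 1 of 57 (1.75%), beside 2.22%. A match of these letters is not a binding site, and their absence says nothing about binding elsewhere.

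Other homeobox genes, listed to compare with, did not all move alike. The 39 HOX cluster genes had a median log2 ratio of -0.61, with 3 of 37 higher, 0 at least 2-fold higher and a covered-length ratio of 0.726. Neighboring genes of a cluster can share peaks and windows, so these values do not describe 39 separate loci. The 52 remaining developmental homeobox genes had a median of 0.08, with 30 of 49 higher, 6 at least 2-fold higher and a covered-length ratio of 1.83. The 24 broadly expressed homeobox genes had a median of -0.41 and a covered-length ratio of 0.938, close to those of all genes. Having a homeobox therefore did not by itself go with a particular ratio in these libraries, and HOX genes sat below the median of all genes while the members sat above it.

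Depth and labels bear on all these values. Filtered tags numbered 16598348 in DMSO and 18265284 in MAK683, with 114060 and 161184 peaks, so 1 tag was 0.0602 and 0.0547 RPM, and the deeper library also had more peaks. SMARCB1, the gene lost in rhabdoid tumor cells, had no peak at its promoter or in its gene body in either library, the leukocyte genes PTPRC and CD3E had none at their promoters, and the housekeeping promoters of GAPDH, ACTB and TBP had 48 to 54 tags in DMSO and 42 to 45 in MAK683. The epithelial marker EPCAM had 12 and 11 tags. The part of depth in these ratios was not tested beyond the scaling by tags.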

How the data were processed

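ATAC-seq was done on G401 cells, with 1 library per group. The study's methods name Trim-galore for trimming and Bowtie2 for alignment to hg19. The authors, per the file headers, ran MACS 2.1.1.20160309 (q-value cutoff 0.05, shift -100 bp, extension 200 bp, no control, no local background, 1 tag per position) on each library alone, while the submitters' processing notes list MACS2 2.1.0 and 2.2.7.1. The deposited pileup is a signal in whole tags, not scaled for depth. Their fold enrichment, also deposited, is a ratio to a genome-wide background. It depends on depth, as do the −log10 p-values and −log10 q-values that the authors deposited. The last were used only as filters and alternatives.

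Heights were scaled to tags after filtering (RPM). Each gene had 1 TSS, that of its canonical transcript in GENCODE 44 lifted to GRCh37. Heights have exact Clopper-Pearson intervals and ratios exact conditional binomial intervals at 95%. They cover counting error only, since no molecular identifiers mark reads as independent molecules. Calls used a 2-fold limit. Members and lists were chosen with earlier results of these data known. Members past 2-fold, members with a peak in 1 library, and the tallest of each subfamily were named by rule, others after their values were seen. The computation was checked on simulated peaks and used Python 3.11.15, numpy 2.4.6, pandas 2.3.3, scipy 1.17.1 and matplotlib 3.10.9. Of 8 marker genes, 7 were matched.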

Additional observations from a re-analysis of the deposited data

How the results depend on the processing

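Alternatives changed peak filters, windows, start sites, height scales and floors, and 313 of 348 alternative values stayed within the counting or count limits of the reported ones. Some of these could not move, such as single ratios with a peak in both libraries when the floor was left out. The limits were also wide. With a −log10 q of at least 5, EN1 at 0.86 and NKX2-1 at 0.45 still counted as within them. The members' own median, -0.04 as reported, ran from -0.14 to 0.38 and so crossed 0, as did the -0.20 of the other 29 members, but the members' median exceeded that of all genes by 0.32 to 0.50 under the settings tried. Subtracting the median of all genes, or leaving tags unscaled, moves members and all genes alike and so does not bear on that distance. IRX had the highest and DLX the lowest subfamily median throughout, with IRX between 0.47 and 1.37 and DLX between -0.58 and -0.01. The count of members at least 2-fold higher, 7 as reported, was the most sensitive value. It was 3 with a −log10 q of at least 5, 3 without the floor, 3 at the tallest shared region, 0 with a −log10 q of at least 10, 0 with a floor of 1 RPM, and 16 after subtracting the median of all genes, which also moved the members' median to 0.38. The 1 member at least 2-fold lower became 0 with a 1 kb window, with summits within 3 kb, with tags unscaled, with fold enrichment, with the median subtracted, with the 1 RPM floor and relative to shared regions within 1 Mb. The covered-length ratio of the members fell to 1.21 with a −log10 q of at least 10, where that of all genes was 0.767. The shared-region, nearest-start-site and 1 Mb settings were chosen after seeing the data. No paired analysis was possible because each group has 1 library, and no library could be left out. Depth limited most single ratios, since a peak of 20 tags has a wide counting interval.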
